A study of Mus musculus with 12 samples.

Results

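Open chromatin was described at the genes of the AP-1 transcription factors and their close relatives, namely Jun, Junb, Jund, Fos, Fosb, Fosl2, Batf, Batf3 and Maf, in blood progenitors of wild-type (WT) mice and of mice without an enhancer of the PU.1 gene (UREd/d, below URE). A region belonged to the set when it overlapped the body of 1 of these 9 genes extended by 20 kb on each side, with gene bodies from the GENCODE M21 basic annotation of the mouse genome GRCm38. This gave 94 of the 121336 regions in the table. Membership was set by position alone and used no measured value.

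The URE is an upstream regulatory element of Spi1, the gene of PU.1, and its deletion lowers PU.1 without removing the gene. Per the study's methods the mice were littermates on a C57BL/6 background. The deletion is in the germline, so that both sorted populations come from mutant marrow. Bone marrow cells were sorted by flow cytometry as LSKs (Lin- Sca-1+ c-Kit+), which hold stem cells and the earliest progenitors, or as GMPs (granulocyte-monocyte progenitors), and open DNA was measured by ATAC-seq, in which a transposase cuts accessible chromatin. Each genotype gave LSK and GMP libraries, that is 4 groups (WT-LSK, WT-GMP, URE-LSK, URE-GMP) of 3 libraries. The mice were young adults per the study's methods, and the labels do not tie an LSK library to a GMP library of the same mouse.

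AP-1 proteins bind DNA as dimers through a basic leucine zipper. Jun proteins (Jun, Junb, Jund) pair with each other or with Fos proteins (Fos, Fosb, Fosl2), and Batf proteins take the place of Fos in dimers that also contact IRF factors. Fos, Fosb, Jun and Junb are immediate early genes, switched on quickly by MAP kinase signalling, partly through serum response factor bound to CArG boxes. Maf is a large Maf protein, a leucine zipper factor that acts in macrophages and lymphocytes. In the myeloid lineage Jun is known as a partner of PU.1, Junb restrains the expansion of myeloid progenitors, and Batf3 is needed for a class of dendritic cells.

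The genes lie on 6 chromosomes. On the minus strand are Jun at chr4:95049034-95052222, Junb at chr8:84974484-84978718, Fosb at chr7:19302696-19310051 and Maf at chr8:115682942-115707794. On the plus strand are Jund at chr8:70698949-70700616, Fos at chr12:85473890-85477273, Fosl2 at chr5:32135801-32157842, Batf at chr12:85686669-85709087 and Batf3 at chr1:191097847-191108945. Regions are named by the distance of their centre from the start of the gene, upstream or downstream.

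The sequences of 6 regions called in both cell types are shown, 4 of the 12 called lower in both and the 2 called higher in both. They are given as the plus strand of GRCm38, for up to 300 bases of each region, around its motifs where it has any. The first 4 were less accessible in URE and are chr7:19318734-19318958 (8.8 kb upstream of Fosb, intergenic), chr8:84982558-84982857 (4.0 kb upstream of Junb, intergenic), chr12:85464975-85465198 (8.8 kb upstream of Fos, intergenic) and chr12:85710684-85710983 (24.2 kb downstream of the Batf start and past its end, intergenic). The last 2 were more accessible in URE and are chr1:191102912-191103211 (5.1 kb downstream of the Batf3 start, in an intron) and chr8:115718593-115718892 (11 kb upstream of Maf, intergenic). Capitals mark GAGGAA, the core of the PU.1 motif, on either strand in the first 4, and the AP-1 motif TGANTCA in the last 2. The motif marked thus differs with direction, and counts of both motifs among all lower and higher calls are given below. The sequence downstream of Batf held none of the motifs searched and has no capitals.
Fosb, 8.8 kb upstream: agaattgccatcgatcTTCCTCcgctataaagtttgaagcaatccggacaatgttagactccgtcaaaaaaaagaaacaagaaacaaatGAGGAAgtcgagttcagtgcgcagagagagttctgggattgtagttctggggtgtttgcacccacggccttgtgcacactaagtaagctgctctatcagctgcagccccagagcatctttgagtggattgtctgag
Junb, 4.0 kb upstream: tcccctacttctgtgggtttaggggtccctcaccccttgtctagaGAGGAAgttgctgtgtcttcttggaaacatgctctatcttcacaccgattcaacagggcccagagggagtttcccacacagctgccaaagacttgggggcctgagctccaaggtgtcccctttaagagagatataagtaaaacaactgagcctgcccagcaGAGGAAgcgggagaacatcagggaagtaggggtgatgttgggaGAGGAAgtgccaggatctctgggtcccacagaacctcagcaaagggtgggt
Fos, 8.8 kb upstream: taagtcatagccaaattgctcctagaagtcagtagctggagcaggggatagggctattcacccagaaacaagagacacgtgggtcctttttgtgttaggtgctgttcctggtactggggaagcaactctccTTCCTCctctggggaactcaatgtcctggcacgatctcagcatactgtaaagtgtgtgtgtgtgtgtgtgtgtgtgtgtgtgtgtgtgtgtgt
Batf, 24.2 kb downstream: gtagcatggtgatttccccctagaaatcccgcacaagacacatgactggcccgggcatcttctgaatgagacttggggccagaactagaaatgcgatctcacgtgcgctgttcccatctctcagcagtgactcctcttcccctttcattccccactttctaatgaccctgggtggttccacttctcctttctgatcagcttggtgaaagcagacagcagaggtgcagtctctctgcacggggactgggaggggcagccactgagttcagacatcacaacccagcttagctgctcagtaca
Batf3, 5.1 kb downstream: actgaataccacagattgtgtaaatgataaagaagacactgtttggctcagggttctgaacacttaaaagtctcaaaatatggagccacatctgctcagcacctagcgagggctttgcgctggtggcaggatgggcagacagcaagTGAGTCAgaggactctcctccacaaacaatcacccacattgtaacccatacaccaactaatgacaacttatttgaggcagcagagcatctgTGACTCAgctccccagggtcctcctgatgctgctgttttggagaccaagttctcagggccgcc
Maf, 11 kb upstream: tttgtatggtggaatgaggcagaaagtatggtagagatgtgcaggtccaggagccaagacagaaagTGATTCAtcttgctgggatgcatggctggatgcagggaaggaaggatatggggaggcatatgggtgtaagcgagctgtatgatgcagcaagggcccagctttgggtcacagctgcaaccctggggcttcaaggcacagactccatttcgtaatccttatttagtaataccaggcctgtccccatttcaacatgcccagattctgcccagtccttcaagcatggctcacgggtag

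Levels are given as CPM, counts scaled to a common library size, as edgeR computes CPM, with TMM scaling as a correction for composition, per library or as mean ± SD of 3 libraries. Genotype differences are log2 fold changes of URE over WT with their standard error (SE), and the first number in such a bracket is that log2 fold change, or that of GMP over LSK where cell types are compared. Calls needed both a difference of more than 1 on the log2 scale, in either direction, and an adjusted p below 0.05 (edgeR quasi-likelihood test, Benjamini-Hochberg over all 121336 regions). The libraries held between 23072701 and 62204826 counts. As a check of the labels, 5 regions 12 to 17 kb upstream of the Spi1 start codon, the window of the deleted element, summed to between 51.8 and 59.0 CPM in the WT libraries of LSKs and to between 4.38 and 4.81 CPM in those of URE. In GMPs they summed to between 71.3 and 86.9 CPM in WT and to between 4.17 and 7.16 CPM in URE. Promoter regions of 6 of 7 LSK marker genes summed to between 242 and 251 CPM in WT-LSK and 190 and 219 CPM in WT-GMP, and those of 5 of 6 GMP marker genes to between 27.9 and 31.1 CPM in WT-LSK and 178 and 219 CPM in WT-GMP. Ly6a, the gene of Sca-1, and Fcgr3, a gene of the Cd16/32 gate, had no promoter region, nor did any of the 3 B cell and 3 T cell markers.

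The 94 regions were spread unevenly. Fosb had 18, Fos 17, Junb 16, Batf3 14, Jund 8, Fosl2 and Batf 7 each, Maf 5 and Jun 2. Of all 94, 52 were intergenic, 24 intronic, 11 in UTRs, 5 in coding exons and 2 in noncoding exons. The start of the named gene was the nearest coding start for 74, and 10 overlapped the promoter of another protein-coding gene. Their width ran from 201 to 5659 bp with a median of 383 bp.

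In URE mice fewer regions of these genes were called than of all regions, most of the calls were losses of open chromatin away from the promoters of the 9 genes, and none of those promoters was called. In LSKs 17 of the 94 regions were called (18.1%), 2 higher and 15 lower in URE, where 37.5% of all regions were called, 13.6% higher and 23.9% lower. In GMPs 26 were called (27.7%), 9 higher and 17 lower, where 39.7% of all regions were called, 15.6% higher and 24.1% lower. In bulk samples fewer cells of a type and less accessibility per cell cannot be told apart. The median log2 fold change over the 94 regions was 0.19 in LSKs and 0.14 in GMPs, beside 0.14 and 0.06 over all regions. Genotypes that do not overlap, as noted below for single regions, were common. In LSKs URE lay above WT without overlap at 26 of the 94 regions and below at 20, beside 35.3% and 31.5% of all regions. In GMPs it lay above at 30 and below at 22, beside 33.3% and 32.1% of all regions.

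Scaling moved the split between higher and lower calls. With GC content offsets 10 were higher and 11 lower in LSKs, and 10 higher and 13 lower in GMPs. The split over all regions moved too, to 22.1% higher and 20.4% lower in LSKs and to 22.2% and 19.8% in GMPs. With loess offsets against abundance 6 were higher and 15 lower in LSKs, and 12 higher and 12 lower in GMPs, where 21.7% of all regions were higher and 18.5% lower in LSKs and 21.9% and 17.1% in GMPs. The median of all regions in LSKs moved between -0.04 with TMM on promoter regions and 0.28 with GC content offsets. The majority of lower calls also depended on the fold threshold. Without it, at an adjusted p under 0.05, 19 of the 94 regions were higher and 20 lower in LSKs. In GMPs 27 were higher and 20 lower. The shares of all regions without the fold threshold were not taken.

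Of the 94 regions, 12 were called lower in both cell types, 2 higher in both and 0 in opposite directions. These are 12.8% and 2.13%, beside 18.7% of all regions lower and 8.45% higher in both. The 12 were 3 of the 26 regions of Jun genes, 4 of the 42 of Fos genes and 5 of the 21 of Batf genes. The 2 were Batf3 5.1 kb downstream and Maf 11 kb upstream. A further 3 were called lower in LSKs alone, 5 lower in GMPs alone and 7 higher in GMPs alone, and 65 in neither (69.1%, and 50.1% of all regions). Few of the calls were at strongly open regions, as over all regions. Of the 30 whose highest group mean was below 5 CPM, 9 were called in LSKs (30%, and 44.3% of all regions at that level) and 13 in GMPs (43.3%, and 48.2%). Of the 64 at or above 5 CPM, 8 were called in LSKs (12.5%, and 30.8%) and 13 in GMPs (20.3%, and 31.3%). Among these were 26 at or above 20 CPM, of which 1 was called in each (3.85%, and 12.6% in LSKs and 11.3% in GMPs).

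**Figure D1:**
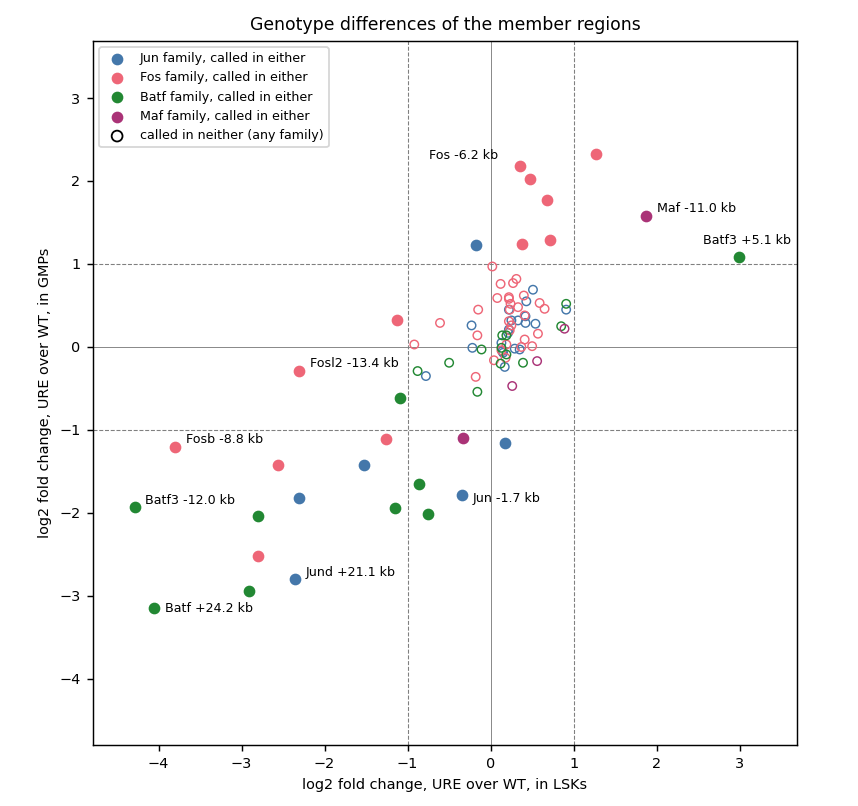
Log2 fold change of URE over WT in GMPs (vertical axis) against that in LSKs (horizontal axis) for the 94 regions, 1 point per region coloured by gene family, with lines at 1 and -1. The 12 regions called lower in both cell types lie at the lower left and hold Jun, Fos and Batf regions. Of the 9 called higher in GMPs 6 belong to Fos genes, which is 14.3% of their 42 regions, beside 15.6% of all regions.

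The promoter regions of all 9 genes were open in every library, and 0 of 9 was called in either cell type. Of all promoter regions 11.5% were called in LSKs and 13.0% in GMPs, and of all other regions 42.4% and 44.7%. These shares count as a promoter region any region within 500 bp of a start of any gene. Of the 73 member regions at no such start, 17 were called in LSKs (23.3%) and 25 in GMPs (34.2%). Of the 85 member regions other than the 9, which include some at other promoters, 17 were called in LSKs (20%) and 26 in GMPs (30.6%). The log2 fold changes of the 9 lay between 0.04 and 0.56 in LSKs and between -0.17 and 0.55 in GMPs, where 5 were positive and 4 negative. Without the fold threshold, 4 of the 9 were higher in URE-LSK and 3 in URE-GMP at an adjusted p under 0.05, as were 38.7% and 35.2% of all promoter regions. The median of all promoter regions was 0.22 in LSKs and 0.16 in GMPs. All 9 values were positive in LSKs in the fit reported, and loess offsets left 6 positive and 3 negative. With loess offsets 1 of the 9 was higher and 1 lower at an adjusted p under 0.05 in LSKs, and 1 higher and 2 lower in GMPs. In GMPs 2 were also lower with library size only (1 higher), TMM on promoter regions (2 higher) and GC content offsets (3 higher).

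Per kb of region and averaged over the 4 groups, the promoter level was 53.2 CPM per kb at Fosl2, 44.4 at Jun, 40.2 at Jund, 39.7 at Junb, 39.1 at Fos, 32.4 at Fosb, 21.4 at Maf, 18.4 at Batf and 15.1 CPM per kb at Batf3. Jund, Junb and Fos were next to each other in this order and differed by less than their spread over the libraries.

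Jun, the founding member of AP-1, had 1 wide region over its promoter and its single exon. It held 217, 207 and 192 CPM in WT-LSK replicates 1, 2 and 3 and 304, 285 and 236 CPM in URE-LSK. In GMPs it held 248, 199 and 212 CPM in WT and 270, 264 and 270 CPM in URE. The URE libraries lay above the WT libraries without overlap in both cell types. The log2 fold change was 0.42, SE 0.09, adjusted p = 0.000759 in LSKs and 0.29, SE 0.09, adjusted p = 0.0111 in GMPs, both under the fold threshold. With loess offsets neither passed the test (0.018, adjusted p = 0.809 in LSKs and -0.0492, adjusted p = 0.486 in GMPs). The GMP difference also did not pass with library size only (0.17, adjusted p = 0.0533).

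Junb showed a shift of like size. Its promoter region held 117, 114 and 99.4 CPM in WT-LSK and 151, 147 and 117 CPM in URE-LSK (0.33, SE 0.11, adjusted p = 0.0158). In GMPs its level was 129, 106 and 101 CPM in WT and 144, 151 and 125 CPM in URE (0.32, SE 0.11, adjusted p = 0.0167). The groups did not overlap in LSKs, by a margin smaller than the rounding of the values shown, and overlapped in GMPs. With loess offsets the values were -0.00567, adjusted p = 0.961 and 0.0439, adjusted p = 0.688. The LSK difference also did not pass with library size only, TMM on promoter regions, GC content offsets or a mean CPM of at least 2 (adjusted p between 0.0596 and 0.139). Nor did it without URE-LSK replicate 1 or 2 or WT-LSK replicate 3 (between 0.0613 and 0.131). The GMP difference did not pass with library size only, TMM on promoter regions, or without URE-GMP replicate 1 or 2 (between 0.0532 and 0.0682).

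Jund, the most steadily expressed of the Jun genes, had the highest promoter difference in GMPs, with 190 ± 4.22 CPM in WT and 279 ± 5.76 CPM in URE (0.55, SE 0.09, adjusted p = 6.7e-05). In LSKs the means were 188 ± 13.2 CPM and 253 ± 41.3 CPM (0.43, SE 0.09, adjusted p = 0.000728, and 0.0257, adjusted p = 0.756 with loess offsets). This region of 5659 bp also covers a start of the neighbouring gene Iqcn.

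At the immediate early genes Fos and Fosb the promoter regions did not pass the test. In LSKs Fos held 85.1, 84.6 and 68.2 CPM in WT against 99, 107 and 71.1 CPM in URE (0.22, SE 0.17, adjusted p = 0.281). The GMP libraries gave 103, 63.6 and 69 CPM in WT against 105, 105 and 81.4 CPM in URE (0.31, SE 0.17, adjusted p = 0.125), and the genotypes overlapped in both cell types. For Fosb the means were 32.1 ± 3.37 CPM and 42.7 ± 8.86 CPM in WT and URE LSKs (0.41, SE 0.18, adjusted p = 0.0574), and 35.8 ± 9.99 CPM and 46.3 ± 6.68 CPM in GMPs (0.38, SE 0.18, adjusted p = 0.0737). Promoter regions of 6 other genes of early or stress response (Egr1, Ier2, Dusp1, Atf3, Hspa1a, Hspa1b) summed in LSKs to between 421 and 494 CPM in WT and between 437 and 544 CPM in URE, and in GMPs to between 471 and 707 CPM in WT and between 584 and 689 CPM in URE. By gene none of the 6 was called. Egr1 (0.27 and 0.29) and Dusp1 (0.24 and 0.26) were higher in URE at an adjusted p under 0.05 in LSKs and GMPs. Ier2 (0.38) and Atf3 (0.42) were so in GMPs alone. Hspa1a (-0.49 and -0.22) and Hspa1b (-0.22 and -0.01) did not pass the test, and their SDs in WT-GMP were 42.1 and 49.4 CPM. The part of such a response in the Fos and Fosb values was not tested.

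Maf was higher at its promoter in URE-LSK, with 65.1, 54.3 and 59 CPM in WT-LSK and 93.7, 87.3 and 82.6 CPM in URE-LSK, which did not overlap (0.56, SE 0.13, adjusted p = 0.00172). In GMPs it held 57.3, 37.9 and 36.5 CPM in WT and 38.9, 40.4 and 36.9 CPM in URE (-0.17, SE 0.13, adjusted p = 0.264). The difference between the cell types, the interaction, was -0.74, SE 0.19, adjusted p = 0.0131, under the fold threshold. The promoter regions of Fosl2 (0.812 and 0.269), Batf (0.229 and 0.585) and Batf3 (0.51 and 0.95, adjusted p in LSKs and GMPs) did not pass the test.

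**Figure D2:**
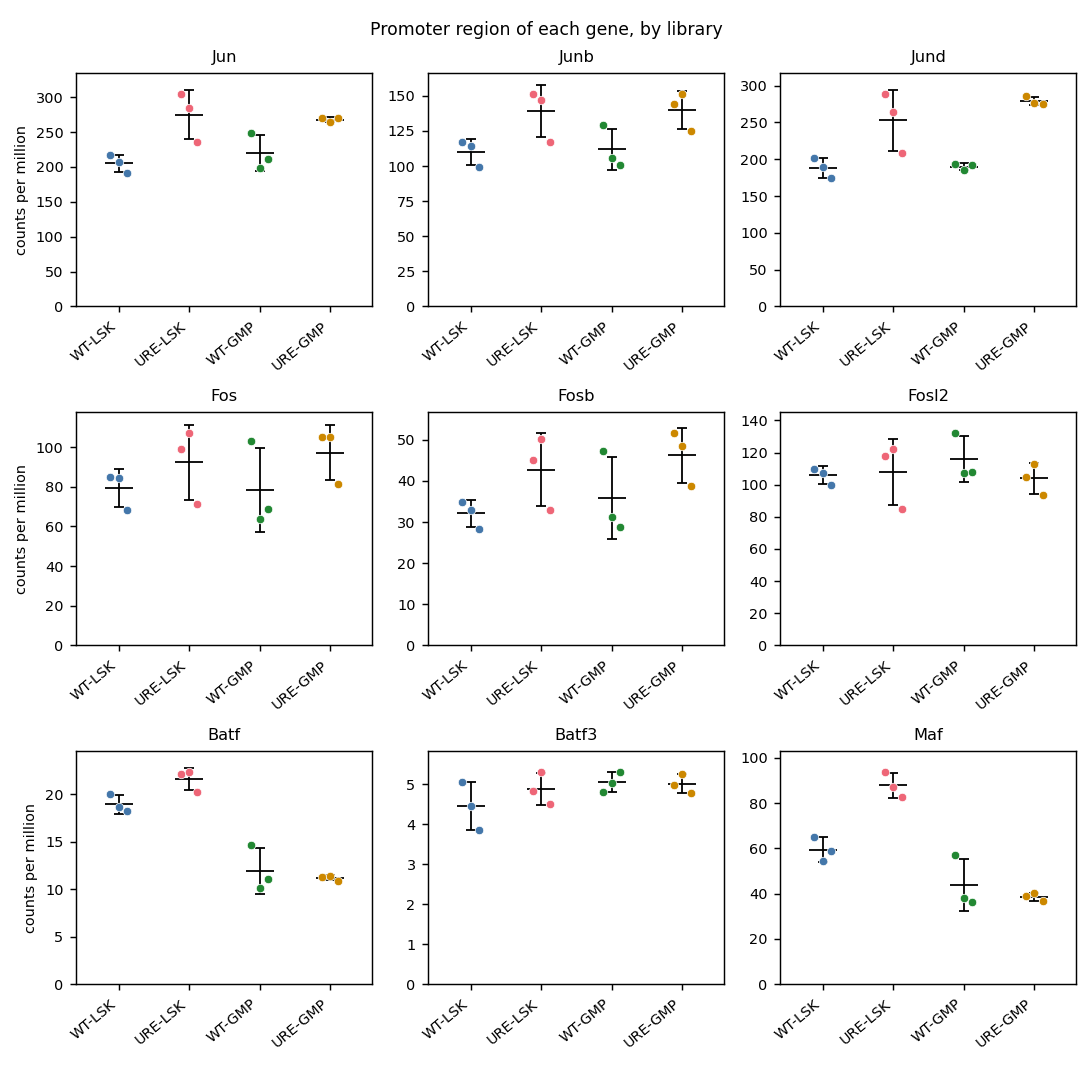
CPM at the promoter region of each of the 9 genes in the 12 libraries (points) with the mean and SD of 3 libraries, in 4 groups per gene and with vertical axes that start at 0 and differ between genes. Jun and Jund of URE lie above WT in both cell types, Maf separates by genotype in LSKs, and Batf is lower in both GMP groups than in both LSK groups.

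The Jun genes had 3 of 26 regions called in LSKs (11.5%, beside 37.5% of all regions), all lower. In GMPs 6 were called (23.1%, beside 39.7%), 5 lower and 1 higher, and 1 of the 6, at Junb 9.9 kb downstream, overlaps promoters of the neighbours Gm49661 and Rnaseh2a. The 26 include the 3 promoter regions. The other region of Jun, 1.7 kb upstream and in an intron of the antisense gene Junos, held 10.5, 6.53 and 6.98 CPM in WT-GMP and 1.94, 2.95 and 2.01 CPM in URE-GMP. The groups did not overlap (-1.78, SE 0.24, adjusted p = 1.31e-05). In LSKs, with 5.36 ± 0.402 CPM in WT and 4.22 ± 1 CPM in URE, it did not pass the test (-0.35, SE 0.24, adjusted p = 0.221).

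The region 4.0 kb upstream of Junb, whose sequence is shown with 3 copies of GAGGAA, fell in both cell types. It held 3.78, 4.2 and 3.3 CPM in WT-LSK and 1.12, 1.14 and 1.6 CPM in URE-LSK (-1.53, SE 0.21, adjusted p = 1.21e-05). It held 5.98, 6.53 and 5.72 CPM in WT-GMP and 2.13, 2.64 and 2.04 CPM in URE-GMP (-1.42, SE 0.20, adjusted p = 1.6e-05). Neither pair of groups overlapped, and the 2 losses differed by less than their errors (interaction 0.11, SE 0.28, adjusted p = 0.834).

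Around Jund, the region 21.1 kb downstream, in an intron of the neighbour Gm3336, fell from 1.46 ± 0.195 CPM to 0.279 ± 0.0412 CPM in LSKs (-2.36, SE 0.29, adjusted p = 3.59e-06) and from 3.13 ± 0.499 CPM to 0.446 ± 0.0312 CPM in GMPs (-2.80, SE 0.26, adjusted p = 3.76e-07). The URE-LSK libraries had between 10 and 15 counts there. The region 19.5 kb upstream, nearest to Lsm4, rose in GMPs from 1.84, 1.47 and 1.01 CPM to 4.09, 3.24 and 2.67 CPM (1.23, SE 0.25, adjusted p = 0.000516) and did not pass the test in LSKs (-0.18, SE 0.25, adjusted p = 0.561). Another region near Lsm4, 16 kb upstream, was named after its values were seen and fell in both (-2.31, SE 0.48, adjusted p = 0.000715 in LSKs; -1.82, SE 0.41, adjusted p = 0.00111 in GMPs), with both calls lost under loess offsets (-0.99, adjusted p = 0.0906 and -0.71, adjusted p = 0.136).

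The Fos genes had 6 of 42 regions called in LSKs (14.3%, beside 37.5% of all regions), all lower. In GMPs 10 were called (23.8%, beside 39.7%), of which 6 were higher (14.3%, beside 15.6%) and 4 lower (9.52%, beside 24.1%). The region 8.8 kb upstream of Fos fell from 1.78, 1.39 and 1.79 CPM in WT-LSK to 0.238, 0.251 and 0.342 CPM in URE-LSK (-2.56, SE 0.33, adjusted p = 6.78e-06). In GMPs it went from 2.09, 1.7 and 1.59 CPM to 0.883, 0.659 and 0.436 CPM (-1.42, SE 0.30, adjusted p = 0.000612), a call lost with loess offsets (-0.5, adjusted p = 0.151). No URE library reached the WT range in either cell type.

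The next region towards Fos, 6.2 kb upstream, moved the other way in GMPs. It held 1.26, 0.671 and 0.83 CPM in WT-GMP and 4.09, 5.55 and 2.42 CPM in URE-GMP, without overlap (2.18, SE 0.34, adjusted p = 5.45e-05). In LSKs it was nearly closed in both genotypes, with 0.312 ± 0.121 CPM in WT and 0.419 ± 0.116 CPM in URE (0.35, SE 0.44, adjusted p = 0.514).

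Regions 2.4 and 4.1 kb downstream of the Fos start, named after their values were seen, were also called higher in GMPs. The nearer region held 3.22, 1.32 and 1.34 CPM in WT-GMP and 11.2, 8.97 and 2.71 CPM in URE-GMP (2.02, SE 0.59, adjusted p = 0.00731). The farther region held 1.92, 0.546 and 0.761 CPM in WT-GMP and 7.15, 6.52 and 1.41 CPM in URE-GMP (2.33, SE 0.73, adjusted p = 0.0119, and 1.98, adjusted p = 0.0538 without WT-GMP replicate 2). In both, URE-GMP replicate 3 lay within the WT-GMP range.

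Upstream of Fosb, regions that fell and regions that rose lay within a few kb. The region 8.8 kb upstream, with 2 GAGGAA cores in the sequence shown, held 2.89, 3.22 and 2.9 CPM in WT-LSK and 0.143, 0.391 and 0.128 CPM in URE-LSK, where it had between 6 and 14 counts per library (-3.80, SE 0.45, adjusted p = 2.7e-06). The GMP libraries had 3.6, 3.13 and 3.02 CPM in WT and 1.33, 2.2 and 0.606 CPM in URE (-1.20, SE 0.35, adjusted p = 0.00788), a call lost with loess offsets (-0.7, adjusted p = 0.0881) and with GC content offsets (-0.78, adjusted p = 0.055). The genotypes did not overlap in either cell type.

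The region 15.9 kb upstream of Fosb, in an intron of the noncoding gene D830036C21Rik, fell from 4.33 ± 1.03 CPM to 0.621 ± 0.169 CPM in LSKs (-2.80, SE 0.40, adjusted p = 2e-05) and from 7.58 ± 1.1 CPM to 1.29 ± 0.902 CPM in GMPs (-2.52, SE 0.36, adjusted p = 2.35e-05). In another intronic region of that gene, 11.6 kb upstream of Fosb, the level rose in GMPs from 1.76, 2.45 and 2.35 CPM in WT to 8.7, 9.07 and 4.87 CPM in URE (1.77, SE 0.31, adjusted p = 0.000135). In LSKs that region did not pass the test (0.68, SE 0.30, adjusted p = 0.0642). Next to the region that fell, 16.5 kb upstream, another that was named after its values were seen rose in GMPs from 4.06, 2.54 and 3.27 CPM to 8.24, 9.06 and 5.81 CPM (1.24, SE 0.23, adjusted p = 0.000231).

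A more open region 6.6 kb upstream of Fosb, with 3 AP-1 motifs, was named after its values were seen. It held 32.5, 30.2 and 30.6 CPM in WT-LSK and 14.3, 19 and 16 CPM in URE-LSK, without overlap but short of the fold threshold (-0.92, SE 0.11, adjusted p = 4.55e-06). In GMPs it held 32.6, 38.9 and 37.9 CPM in WT and 36.8, 41.6 and 33.8 CPM in URE (0.03, SE 0.11, adjusted p = 0.812).

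Fosl2, a Fos protein without the strong activation domain of Fos and Fosb, had 7 regions. The region 1.4 kb downstream of its start, in an intron, fell from 4.16 ± 0.63 CPM to 1.75 ± 0.308 CPM in LSKs (-1.26, SE 0.22, adjusted p = 0.000143) and from 4.88 ± 1.15 CPM to 2.25 ± 0.17 CPM in GMPs (-1.11, SE 0.21, adjusted p = 0.000342). The intronic region 2.8 kb downstream rose in GMPs from 8.53, 6.46 and 4.26 CPM in WT to 16.3, 16.9 and 13.6 CPM in URE (1.29, SE 0.26, adjusted p = 0.000539).

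The region 13.4 kb upstream of Fosl2 held 3.8, 3.59 and 2.65 CPM in WT-LSK and 0.476, 0.67 and 0.854 CPM in URE-LSK (-2.31, SE 0.29, adjusted p = 4.44e-06). In GMPs it was wide open in both genotypes, with 18.2, 17.6 and 13.5 CPM in WT and 15.1, 16.4 and 8.84 CPM in URE (-0.29, SE 0.23, adjusted p = 0.288). The genotypes were apart in LSKs and overlapped in GMPs.

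The Batf genes had 7 of 21 regions called in LSKs, 6 of them lower, and 8 in GMPs, 7 of them lower. These shares of 33.3% and 38.1% lay near the 37.5% and 39.7% of all regions. The region 12 kb upstream of Batf3 lies in the last exon, in the UTR, of the neighbour Nsl1 and had the lowest log2 fold change of the 94 regions in LSKs. It held 23.2, 25.6 and 25.9 CPM in WT-LSK and 0.904, 1.7 and 1.24 CPM in URE-LSK (-4.29, SE 0.28, adjusted p = 1.05e-08). Among GMPs the levels were 22, 24.2 and 27.2 CPM in WT and 6.48, 9.04 and 3.63 CPM in URE (-1.93, SE 0.24, adjusted p = 6.33e-06). It was equally open in both WT cell types within their spread, and no URE library reached the WT range.

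The region 24.2 kb downstream of the Batf start was nearly closed in both URE groups. It held 3.49, 4.69 and 3.26 CPM in WT-LSK and 0.286, 0.14 and 0.235 CPM in URE-LSK, where it had between 5 and 12 counts per library (-4.06, SE 0.46, adjusted p = 1.78e-06). GMP levels were 5.9, 7.47 and 5.92 CPM in WT and 0.474, 1.35 and 0.267 CPM in URE (-3.15, SE 0.39, adjusted p = 5.1e-06). Upstream of Batf, 2 regions named after their values were seen fell as well, at 12.6 kb in LSKs (-1.09, SE 0.17, adjusted p = 3.72e-05) and at 16.4 kb in GMPs (-1.65, SE 0.23, adjusted p = 1.63e-05).

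Batf3 had 5 of 14 regions called in LSKs (35.7%, beside 37.5% of all regions), 4 of them lower, and 6 in GMPs (42.9%, beside 39.7%), 5 of them lower. The region 17.2 kb downstream fell from 4.51 ± 0.481 CPM to 0.604 ± 0.117 CPM in LSKs (-2.91, SE 0.32, adjusted p = 1.28e-06) and from 4.95 ± 0.482 CPM to 0.624 ± 0.391 CPM in GMPs (-2.94, SE 0.31, adjusted p = 1.24e-06). Regions 11.1 kb upstream (-1.15 and -1.94) and 25.1 kb downstream (-2.80 and -2.04, log2 fold changes in LSKs and GMPs), named after their values were seen, were also called lower in both.

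Against these losses, the intronic region 5.1 kb downstream of the Batf3 start, with 2 AP-1 motifs in the sequence shown, rose. It held 0.394, 0.408 and 0.382 CPM in WT-LSK and 3.57, 2.29 and 3.55 CPM in URE-LSK (2.99, SE 0.36, adjusted p = 3.15e-06). In GMPs it held 1.46, 0.483 and 0.691 CPM in WT and 1.64, 1.77 and 1.89 CPM in URE (1.09, SE 0.33, adjusted p = 0.01), and without WT-GMP replicate 2 that difference was 0.78, adjusted p = 0.0567. The genotypes did not overlap in either cell type.

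Maf had 5 regions. The region 11 kb upstream held 4.73, 7.89 and 3.57 CPM in WT-GMP and 15.9, 15.8 and 16.8 CPM in URE-GMP, without overlap (1.58, SE 0.36, adjusted p = 0.00121). In LSKs it was close to 0, with 0.236, 0.245 and 0.0603 CPM in WT (between 3 and 9 counts) and 0.333, 0.279 and 1.15 CPM in URE (between 10 and 54 counts). The LSK call (1.87, SE 0.62, adjusted p = 0.0165) was lost without URE-LSK replicate 3 (0.9, adjusted p = 0.211) and without WT-LSK replicate 3 (1.27, adjusted p = 0.126). The region 18.7 kb upstream fell in GMPs from 1.38, 2.06 and 1.91 CPM to 0.538, 0.746 and 1.26 CPM (-1.10, SE 0.28, adjusted p = 0.00308), a call lost with GC content offsets (-0.63, adjusted p = 0.0606).

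**Figure D3:**
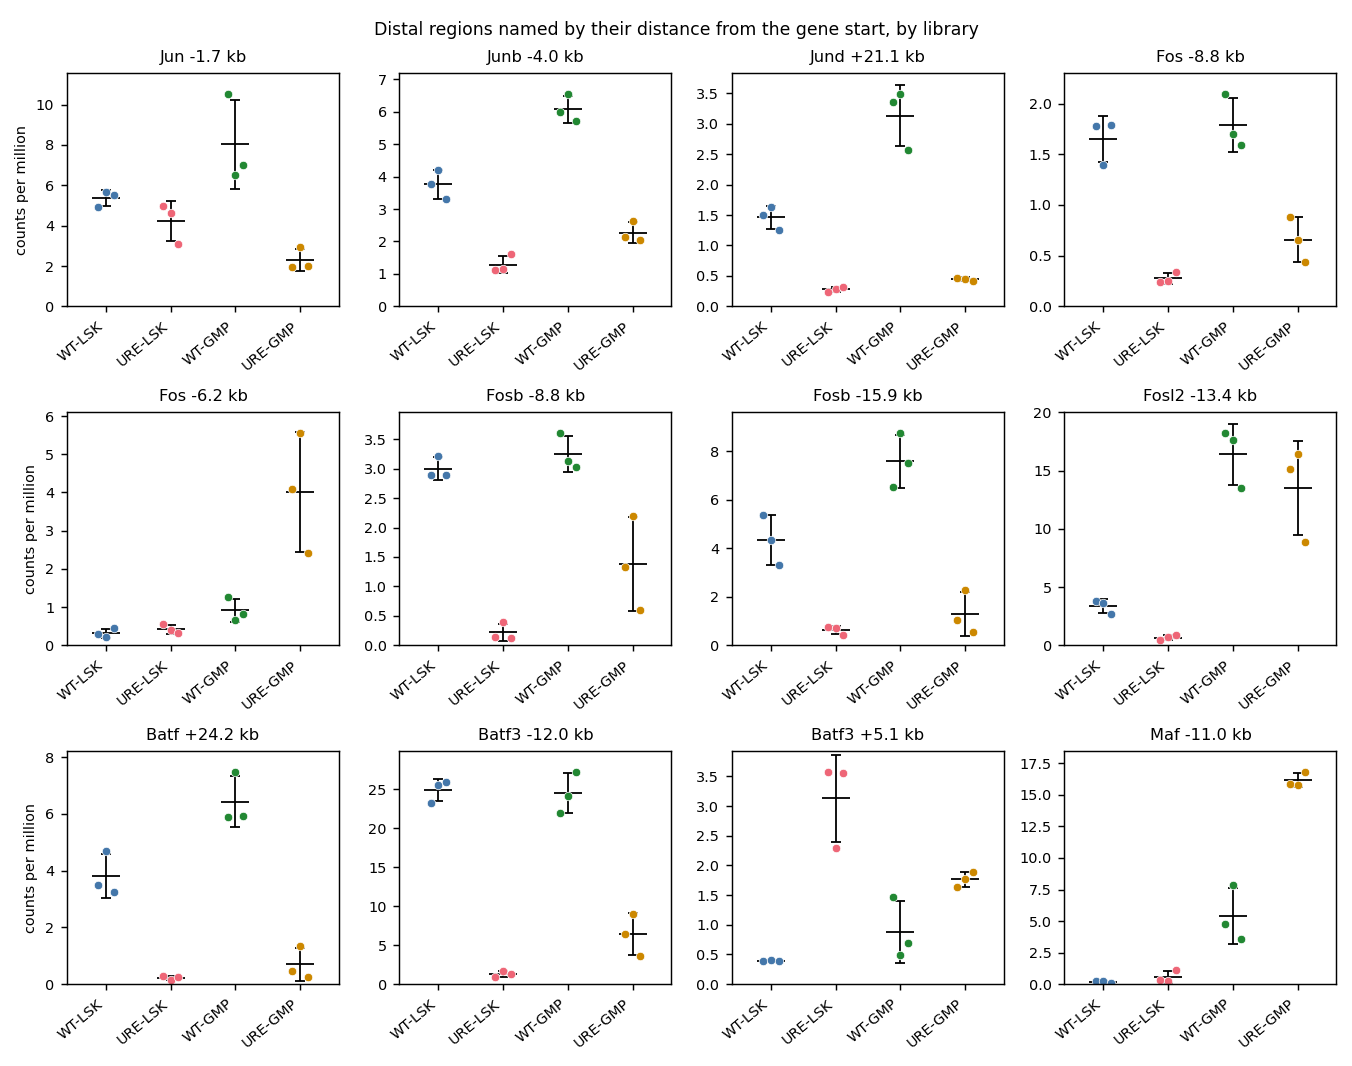
CPM in each of the 12 libraries (points) at distal regions named in the text, with the mean and SD of 3 libraries and vertical axes that start at 0 and differ between regions. Batf 24.2 kb downstream is low in both URE groups, Batf3 12 kb upstream is lower in URE-LSK than in URE-GMP, and Maf 11 kb upstream is highest in URE-GMP.

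**Figure D4:**
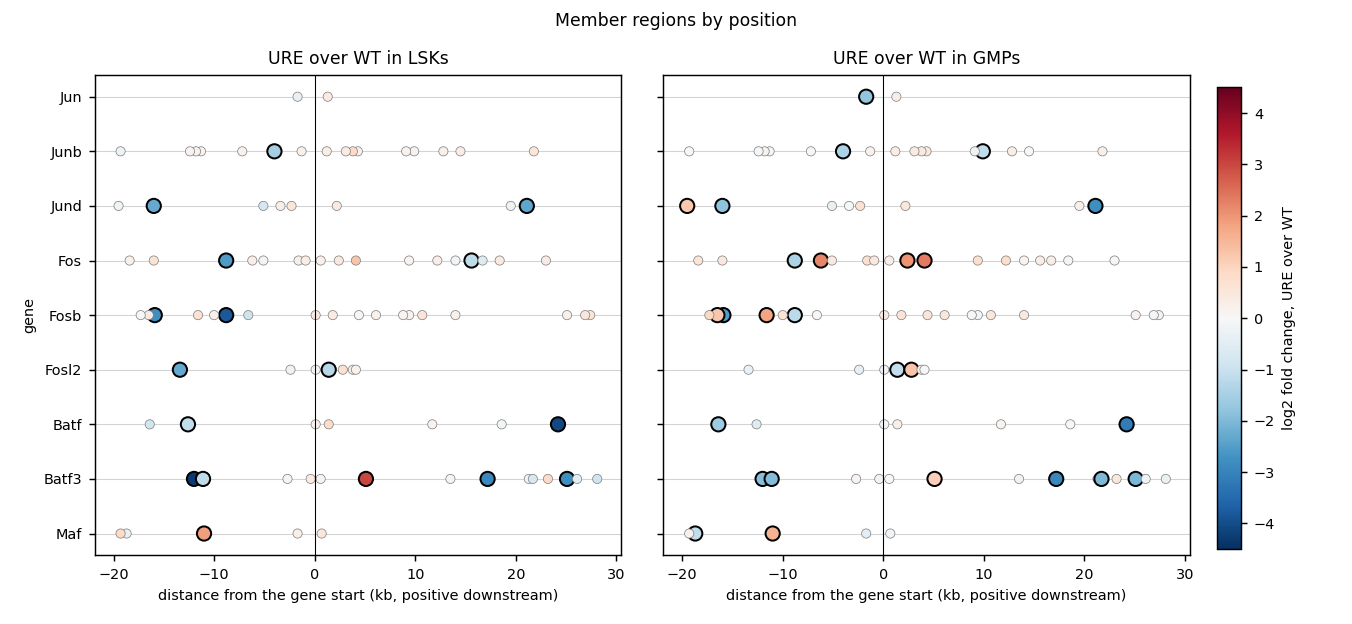
Distance of the centre of each of the 94 regions from the gene start in kb (horizontal axis) by gene (vertical axis), in LSKs and GMPs, with colour for the log2 fold change of URE over WT and an outline for called regions. The regions called lower lie between 1.4 and 25.1 kb from the starts, and no promoter region of the 9 genes is outlined.

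Several markers of later cells moved with genotype in these libraries. The promoter regions of 3 mature neutrophil markers (Ltf, Camp, Ngp) summed in LSKs to between 7.58 and 8.85 CPM in WT and between 5.64 and 6.11 CPM in URE, and in GMPs to between 9.86 and 16.7 CPM in WT and between 39.2 and 46.1 CPM in URE. The LSK sum was carried by Ltf, at 7.72 CPM in WT and 3.92 CPM in URE, whereas Camp (1.53) and Ngp (1.79) were called higher in URE-LSK. The promoter regions of 2 macrophage markers (Adgre1, Cd68) summed to between 16.3 and 19.4 CPM in WT and 6.14 and 7.37 CPM in URE among LSKs, and to between 42.9 and 46.2 CPM and 22.2 and 33.2 CPM among GMPs. The fall in GMPs was carried by Cd68, with means of 32.7 CPM in WT and 14.2 CPM in URE, beside 12.3 and 13.3 CPM at Adgre1. The 2 megakaryocyte markers (Itga2b, Pf4) summed to between 42 and 58.2 CPM in WT and 64.5 and 66.4 CPM in URE among LSKs, and to between 21.9 and 37.9 CPM and 14.5 and 23.8 CPM among GMPs. The rise in LSKs was that of Itga2b, from 32 to 51.8 CPM, whereas Pf4 went from 17.5 to 13.8 CPM. Of 3 erythroid markers 1 had a promoter region, which summed to between 7.22 and 8.16 CPM in WT and 7.92 and 8.76 CPM in URE among LSKs, and to between 6.17 and 9.2 CPM and 5.04 and 5.45 CPM among GMPs. In URE the LSK list summed to between 263 and 293 CPM in LSKs and 211 and 220 CPM in GMPs, and the GMP list to between 21.6 and 44.8 CPM and 282 and 298 CPM. Within the GMP list Csf1r was called lower in URE in LSKs and GMPs (-4.42 and -1.82), and Ctsg higher (1.93 and 1.12). Elane, Mpo and Prtn3 were called in neither. The part of the cells with these markers in the differences at the AP-1, Batf and Maf genes was not tested.

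The step from LSK to GMP was read within each genotype. In WT 18 of the 94 regions were called (19.1%), 14 higher and 4 lower in GMPs, where 37.8% of all regions were called, 21% higher and 16.8% lower. In URE 30 were called (31.9%), 20 higher and 10 lower, where 49.1% of all regions were called, 27.6% higher and 21.6% lower. The Fos genes had 7 of 42 regions higher (16.7%) and 1 lower in WT and 13 higher (31%) and 1 lower in URE. Maf had 1 higher and 3 lower in WT and 1 higher and 4 lower in URE. The fourth in URE was its promoter region, which fell from 87.9 ± 5.61 CPM in URE-LSK to 38.7 ± 1.78 CPM in URE-GMP (-1.18, SE 0.13, adjusted p = 9.83e-07) and was the only called promoter region of the 9 in this step. The Batf promoter region fell by 0.67 in WT (adjusted p = 0.000438) and by 0.95 in URE (adjusted p = 8.9e-06) on the log2 scale, under the fold threshold.

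Several regions opened in this step in both genotypes. Maf 11 kb upstream rose in WT (5.02, SE 0.52, adjusted p = 1.47e-06) and in URE (4.73, SE 0.43, adjusted p = 1.24e-07). Fos 15.6 kb downstream, named after its values were seen, went from 1.02 ± 0.424 CPM to 11.5 ± 1.43 CPM in WT and from 0.432 ± 0.367 CPM to 14.3 ± 1.03 CPM in URE. Its genotype difference in LSKs was called (-1.13, SE 0.41, adjusted p = 0.0287) although the libraries overlapped, and it was -0.77, adjusted p = 0.122 without URE-LSK replicate 1, -0.88, adjusted p = 0.101 without URE-LSK replicate 2 and -0.86, adjusted p = 0.116 without WT-LSK replicate 2. Batf3 26.1 kb downstream, also named after its values were seen, went from 0.0907 ± 0.0787 CPM to 2.1 ± 0.925 CPM in WT and from 0.0758 ± 0.0588 CPM to 1.8 ± 0.454 CPM in URE. In the other direction Maf 19.3 kb upstream, named likewise, fell in WT (-2.81, SE 0.56, adjusted p = 0.000528) and in URE (-3.49, SE 0.51, adjusted p = 1.6e-05).

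Other regions differed between the cell types by the call in URE but not in WT. Batf3 12 kb upstream rose from LSK to GMP in URE (2.33, SE 0.28, adjusted p = 1.8e-06), beside -0.02, SE 0.23, adjusted p = 0.938 in WT. Fosb 8.8 kb upstream rose in URE (2.71, SE 0.46, adjusted p = 6.71e-05), beside 0.11, SE 0.35, adjusted p = 0.797 in WT. In both the URE-GMP level stayed below that of WT-GMP. The genotype and cell type comparisons share libraries and read the same measurements along different axes.

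**Figure D5:**
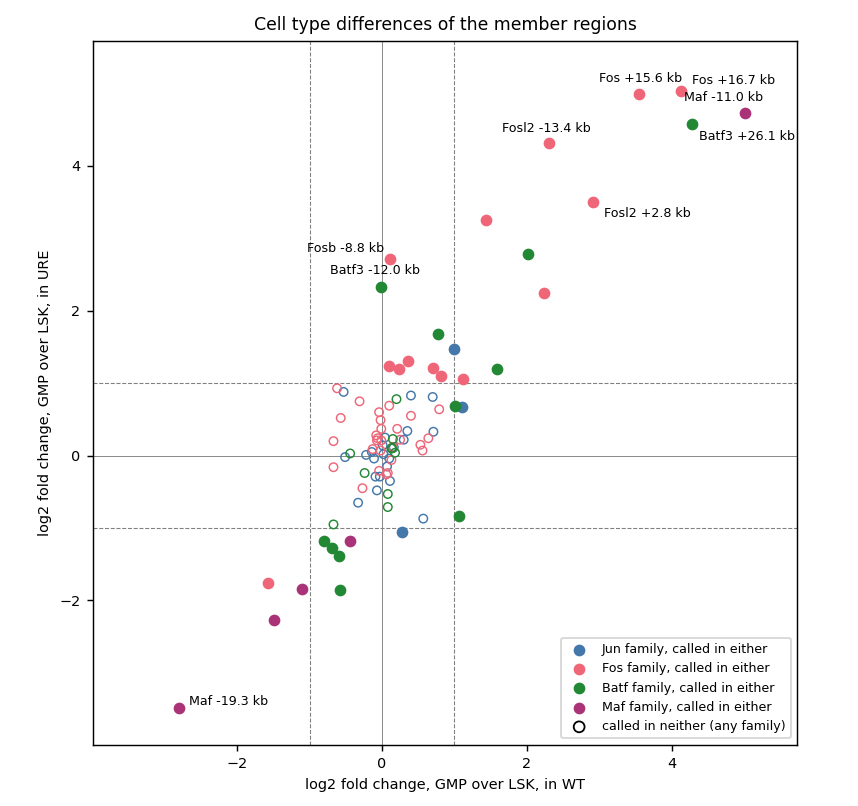
Log2 fold change of GMP over LSK in URE (vertical axis) against that in WT (horizontal axis) for the 94 regions, 1 point per region coloured by gene family, with lines at 1 and -1. Fos 15.6 kb downstream, Maf 11 kb upstream and Batf3 26.1 kb downstream are far up on both axes, while Fosb 8.8 kb upstream and Batf3 12 kb upstream are near 0 in WT and above 1 in URE.

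The interaction, the genotype effect in GMPs minus that in LSKs, was called at 9 of the 94 regions (9.57%), 5 positive and 4 negative, where 14.0% of all regions were called, 8.96% positive and 5.03% negative. The loss was smaller in GMPs at Fosb 8.8 kb upstream (2.60, SE 0.58, adjusted p = 0.00627), Batf3 12 kb upstream (2.36, SE 0.36, adjusted p = 0.000492) and Fosl2 13.4 kb upstream (2.02, SE 0.36, adjusted p = 0.00156). The GMP value was the higher at Fos 6.2 kb upstream (1.83, SE 0.56, adjusted p = 0.0359) and Jund 19.5 kb upstream (1.41, SE 0.35, adjusted p = 0.0127). The rise at Batf3 5.1 kb downstream was larger in LSKs (-1.90, SE 0.49, adjusted p = 0.0147). The GMP value was the lower at Jun 1.7 kb upstream (-1.44, SE 0.34, adjusted p = 0.00853) and, named after their values were seen, at Junb 9.9 kb downstream (-1.33, SE 0.33, adjusted p = 0.0123), in an intron of Rnaseh2a, and Batf3 21.7 kb downstream (-1.27, SE 0.35, adjusted p = 0.0224). Fosb 6.6 kb upstream had 0.96, SE 0.16, adjusted p = 0.000914, just under the fold threshold. Without URE-GMP replicate 3 the number of called interactions was 15, 10 positive and 5 negative. Of all regions 9.72% were then called positive and 5.40% negative.

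The letters of the regions were searched for short motifs on both strands. The PU.1 motif GAGGAAGT was in 6 of the 94 regions (6.38%) and in 10.5% of all regions, and 2 of the 6 were called lower in LSKs and 3 in GMPs. Its core GAGGAA, which is part of that motif and was searched after values had been seen, was in 43 (45.7%) and in 46.9% of all regions. The core was in 9 of the 15 regions called lower in LSKs, 9 of the 17 called lower in GMPs, 0 of the 2 called higher in LSKs and 1 of the 9 called higher in GMPs. Over all regions it was in 66.1% and 64.5% of those called lower and in 29.9% and 30% of those called higher, in LSKs and GMPs. The AP-1 motif TGANTCA was in 18 (19.1%, and 15.1% of all regions), with 2 called lower and 2 higher in LSKs and 3 lower and 3 higher in GMPs. CRE TGACGTCA was in 2 (2.13%, and 1.04%), RUNX AACCACA in 17 (18.1%, and 17.3%), CEBP TTGCNNAA in 26 (27.7%, and 20.5%) and ETS CCGGAAGT in 3 (3.19%, and 1.88%). The CArG box of serum response factor was in 7 (7.45%, and 1.92%), among them the promoter regions of Fos, Fosb and Junb. The regions differ in width, and no test was made of these shares. Over all regions, calls were split by motif for the core GAGGAA alone, so the call counts of the other motifs have no such comparison.

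Genes that act beside or upstream of AP-1 were read by the same 20 kb rule. Of 106 regions of 7 further leucine zipper genes close to AP-1 (Fosl1, Batf2, Atf3, Jdp2, Atf2, Atf7, Creb5), 10 were called higher and 24 lower in URE-LSK, and 19 higher and 20 lower in URE-GMP. The shares were 9.43% and 22.6% in LSKs, beside 13.6% and 23.9% of all regions, and 17.9% and 18.9% in GMPs, beside 15.6% and 24.1%. The only called promoter region of the 7 was that of Batf2, which fell in LSKs from 4.24 ± 1.26 to 1.74 ± 0.317 CPM (log2 fold change -1.29, adjusted p = 0.0025). Of 146 regions of 12 other Maf and CNC leucine zipper genes, 14 were called higher (9.59%) and 31 lower (21.2%) in LSKs, and 12 higher (8.22%) and 36 lower (24.7%) in GMPs. Of 163 regions of 14 MAP kinase pathway genes, 16 were called higher (9.82%) and 25 lower (15.3%) in LSKs, and 28 higher (17.2%) and 24 lower (14.7%) in GMPs. Of 75 regions of 5 genes of serum response factor and its partners, 3 were called higher (4%) and 20 lower (26.7%) in LSKs, and 5 higher (6.67%) and 24 lower (32.0%) in GMPs. In these last 3 lists, 0 of the 10, 13 and 5 promoter regions was called in either genotype comparison.

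Over the 12 libraries and 13027 promoter regions compared, the ones whose log2 CPM was most like that of Jun were those of Sacm1l (Pearson r = 0.987), Psmc3 (0.974) and Anapc15 (0.972). For Junb they were those of Cops8 (0.976), Prkar2b (0.969) and Nup214 (0.964). The libraries share groups and scaling, and these values are a description without a test.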

How the data were processed

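ATAC-seq counts were analysed for 12 libraries, 3 per genotype in LSKs and in GMPs. The deposited table holds raw counts per region, which the authors made by trimming (cutadapt), alignment to GRCm38 (Bowtie2), removal of duplicates, peak calling per group (Genrich), merging of peaks (bedtools) and counting (featureCounts). Whether fragments or read ends were counted was not given in the sources used here. Region starts were read as 0-based and are printed 1-based. The libraries of a group are taken as separate mice per the study's methods.

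All 121336 regions of all 12 libraries were fitted at once in edgeR 4.0.16 (R 4.3.3) with TMM scaling, filterByExpr (which removed 0 regions), 1 coefficient per group and the two-sided quasi-likelihood test. Peaks had been called on these same libraries, so a region is in the table because some group was open there. Regions named by rule were, for each gene, the promoter region (the region with the most counts within 500 bp of a start) and, among regions at no other coding promoter, the called region with the smallest p in each direction and cell type and for the interaction. Others are marked as named after their values were seen. The members, gene lists and tests were chosen with earlier results of these data known.

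Replicate numbers were checked for pairing by the correlation of deviations of same-numbered libraries, replicates 1, 2 and 3. For WT-LSK with WT-GMP these were 0.181, 0.191 and 0.207, and for WT-GMP with URE-GMP 0.0997, 0.205 and 0.349. For URE-LSK with URE-GMP they were 0.0616, 0.273 and 0.113, and for WT-LSK with URE-LSK 0.102, 0.0625 and -0.0616. Alternatives were DESeq2 1.42.0, other scalings and filters, offsets, the replicate block, other thresholds and windows, and leaving out each library.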

Additional observations from a re-analysis of the deposited data

Results flagged for a closer look

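The genotype effect differed between GMPs and LSKs, by the interaction test, at 9 regions. The GMP log2 fold change of URE over WT minus that in LSKs was 2.60 at Fosb 8.8 kb upstream, 2.36 at Batf3 12 kb upstream, 2.02 at Fosl2 13.4 kb upstream, 1.83 at Fos 6.2 kb upstream and 1.41 at Jund 19.5 kb upstream. It was -1.90 at Batf3 5.1 kb downstream, -1.44 at Jun 1.7 kb upstream, -1.33 at Junb 9.9 kb downstream and -1.27 at Batf3 21.7 kb downstream. The call at Fos 6.2 kb upstream was lost with loess offsets (1.6, adjusted p = 0.0614) and when any of 6 libraries was left out, with an adjusted p between 0.0571 and 0.137. The call at Batf3 21.7 kb downstream was lost without URE-LSK replicate 1, WT-GMP replicate 2 or WT-LSK replicate 1 (adjusted p between 0.0591 and 0.0672).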

How the results depend on the processing

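The numbers of called regions were 17 in LSKs, 26 in GMPs, 18 in the WT step, 30 in the URE step and 9 for the interaction. Leaving out each library in turn gave 16 to 18, 23 to 26, 15 to 18, 28 to 31 and 8 to 15. Without the fold threshold they were 39, 47, 40 and 50, of which 19, 27, 26 and 33 were higher and 20, 20, 14 and 17 lower. Gene bodies without extension hold only 24 of the 94 regions, and among these the numbers were 2, 4, 3, 3 and 1. Of these calls 1 was higher and 1 lower in LSKs, and 3 were higher and 1 lower in GMPs. Of all regions 37.5%, 39.7%, 37.8%, 49.1% and 14.0% were called in the 5 comparisons. A mean CPM of at least 2 kept 82 of the 94 regions and left 9 called in the WT step, 6 higher and 3 lower. Of all regions kept, 14.7% were called higher and 13.8% lower in that step. An adjusted p under 0.01 left 4 interactions. With the replicate block the numbers of called regions were 17, 26, 17, 30 and 11. Among the regions named, the block moved the Fos promoter region in GMPs (0.32, adjusted p = 0.0273), the Fosb promoter region in LSKs (0.4, adjusted p = 0.00677) and GMPs (0.39, adjusted p = 0.00718) and Fosl2 2.8 kb downstream in LSKs (0.65, adjusted p = 0.0411) past an adjusted p of 0.05.

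Differences that changed sign were all at regions not called there. The Fosl2 promoter in LSKs was -0.29 (loess), -0.15 (TMM on promoter regions), -0.0887 (library size only), -0.19 (GC content offsets, with and without the block), -0.11 (mean CPM of at least 2), -0.0193 (only the groups compared) and, leaving out 1 library at a time, between -0.0684 and 0.18. The Batf3 promoter in LSKs was -0.0468 (TMM on promoter regions), -0.25 (GC content offsets, with and without the block), -0.0125 (mean CPM of at least 2) and, leaving out 1 library, between -0.0293 and 0.19, and in GMPs 0.0431 (RLE), 0.0463 (loess), 0.0405 (DESeq2) and, leaving out 1 library, between -0.0834 and 0.0327. With loess offsets the promoters were -0.0492 at Jun in GMPs, -0.00567 at Junb and -0.079 at Fos in LSKs, and Jund 19.5 kb upstream was 0.00831 in LSKs. With GC content offsets, and with these and the block, Jun 1.7 kb upstream in LSKs was 0.13 and 0.1, Fosl2 13.4 kb upstream in GMPs 0.0452 and 0.0242, the Batf promoter in GMPs 0.0221 and 0.0326, and Maf 18.7 kb upstream in LSKs 0.14 in both. Leaving out 1 library, the Batf promoter in GMPs was between -0.19 and 0.041 and the Maf promoter between -0.27 and 0.0194, both positive without WT-GMP replicate 1. The cause was not tested. Regions with few counts, such as Maf 11 kb upstream in LSKs, are limited by depth.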
